A study of Mus musculus with 9 samples.

Results

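Endothelial cells line the blood vessels of skeletal muscle, and their marker genes were followed here in RNA from white gastrocnemius muscle, which lies in the calf. The mice either lacked acid alpha-glucosidase, the lysosomal enzyme that breaks down glycogen and whose loss causes Pompe disease, or were wild type. The set holds 33 genes, picked by symbol as markers of endothelium, among 18062 genes in the table. All 33 were found and were above 0 in all 9 libraries, and 32 of them, all but Tal1, reached the mean level of 0.5 RPKM needed to be tested, among 11032 genes tested in all.

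There were 5 libraries from Gaa knock-out mice aged 5 months, in which exon 6 of Gaa was disrupted by targeting, with loxP sites in the introns on both sides of it. There were 4 libraries from wild-type mice, 2 at 5 months and 2 at 6 months. Both genotypes are labelled as mixed background, which the protocol gives as BL6/129j for a colony kept by mating brothers with sisters. Which of wt1 to wt4 are the older mice is not given in the table, so the wild-type libraries form 1 arm and a share of age in a difference cannot be told apart from genotype. The labels number the libraries but do not name animals, and a p-value here therefore weighs the spread among libraries, which may be technical. Levels are RPKM, reads scaled to transcript length and to the number of mapped reads, and can be set side by side between genes.

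Blood vessels are sealed by endothelial junctions, grow under vascular endothelial growth factor (VEGF), and are steadied by angiopoietin signals through Tek and Tie1. They sort into arteries, veins and capillaries partly by Notch signalling, of which Dll4 is a ligand and Notch4 a receptor. Factors of the SoxF family (Sox7, Sox17 and Sox18) and of the ETS family (Erg and Fli1) hold endothelial gene expression in place. Muscle holds a capillary bed, in which endothelium hands fatty acids and glucose to the fibres.

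Gaa, the targeted gene, read 3.11 to 3.64 RPKM in ko1 to ko5, against 46.0 to 56.0 RPKM in wt1 to wt4. From the steps between low values, the depth of a library came to an estimated 17.6 to 37.1 reads per RPKM and kilobase among knock-outs, against 36.9 to 64.3 among wild types. The muscle fibre markers, 10 genes such as Acta1 and Ckm, summed to 76839 to 85411 RPKM in the knock-out and 72488 to 77909 RPKM in the wild type. The 32 endothelial genes tested summed to 93.7 to 147 RPKM in the knock-out and 114 to 179 RPKM in the wild type. In whole muscle RNA, fewer endothelial cells, less RNA per endothelial cell and more RNA from other cells cannot be told apart.

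Most of the endothelial markers were lower in the knock-out. Of the 32 tested, 19 fell, 1 rose (Plvap) and 12 did not pass the test (limma on log2(RPKM + 0.1), Benjamini-Hochberg adjusted p below 0.05 over all genes tested). Across all 11032 genes the share called lower was 14.8% and the share called higher was 37.0%. The log2 fold change was negative for 27 of the 32, with a median of -0.51, where the median over all genes was 0.12. With each library centred on its median gene, 23 markers were lower and none higher, and over all genes 25.0% were lower and 25.1% higher. The separation of single libraries was less complete: for 6 of the 32 all knock-out values lay below all wild-type values, which held for 11.4% of all genes, and for none did they all lie above, which held for 30.9%.

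Library ko2 held the highest knock-out value for 30 of the 32 markers, where it did so for 34.0% of all genes. Without ko2, 23 markers were called lower and 0 higher, where 14.5% and 34.1% of all genes were. In 21 of the 32 the other knock-out values lay wholly below the wild type, as in 13.4% of all genes. Library ko2 was singled out with its high values known, so the values without it are a description and support no call. In the wild type, wt3 and wt4 both lay above wt1 and wt2 for 27 of the 32, against 39.6% of all genes. Without wt3 and wt4 the counts were 11 lower and 4 higher (Plvap, Cd34, Aplnr and Ramp2), where 12.0% of all genes were lower and 36.8% higher. In that fit Cdh5, Kdr, Eng, Emcn, Erg, Gpihbp1, Notch4 and Podxl lost their calls as lower. Without wt1 and wt2 the counts were 24 lower and 0 higher, where 13.5% of all genes were lower and 28.6% higher. Leaving out a wild-type pair was chosen after the data were seen, and whether the wild-type difference follows age cannot be told, as the columns give no age.

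**Figure D1:**
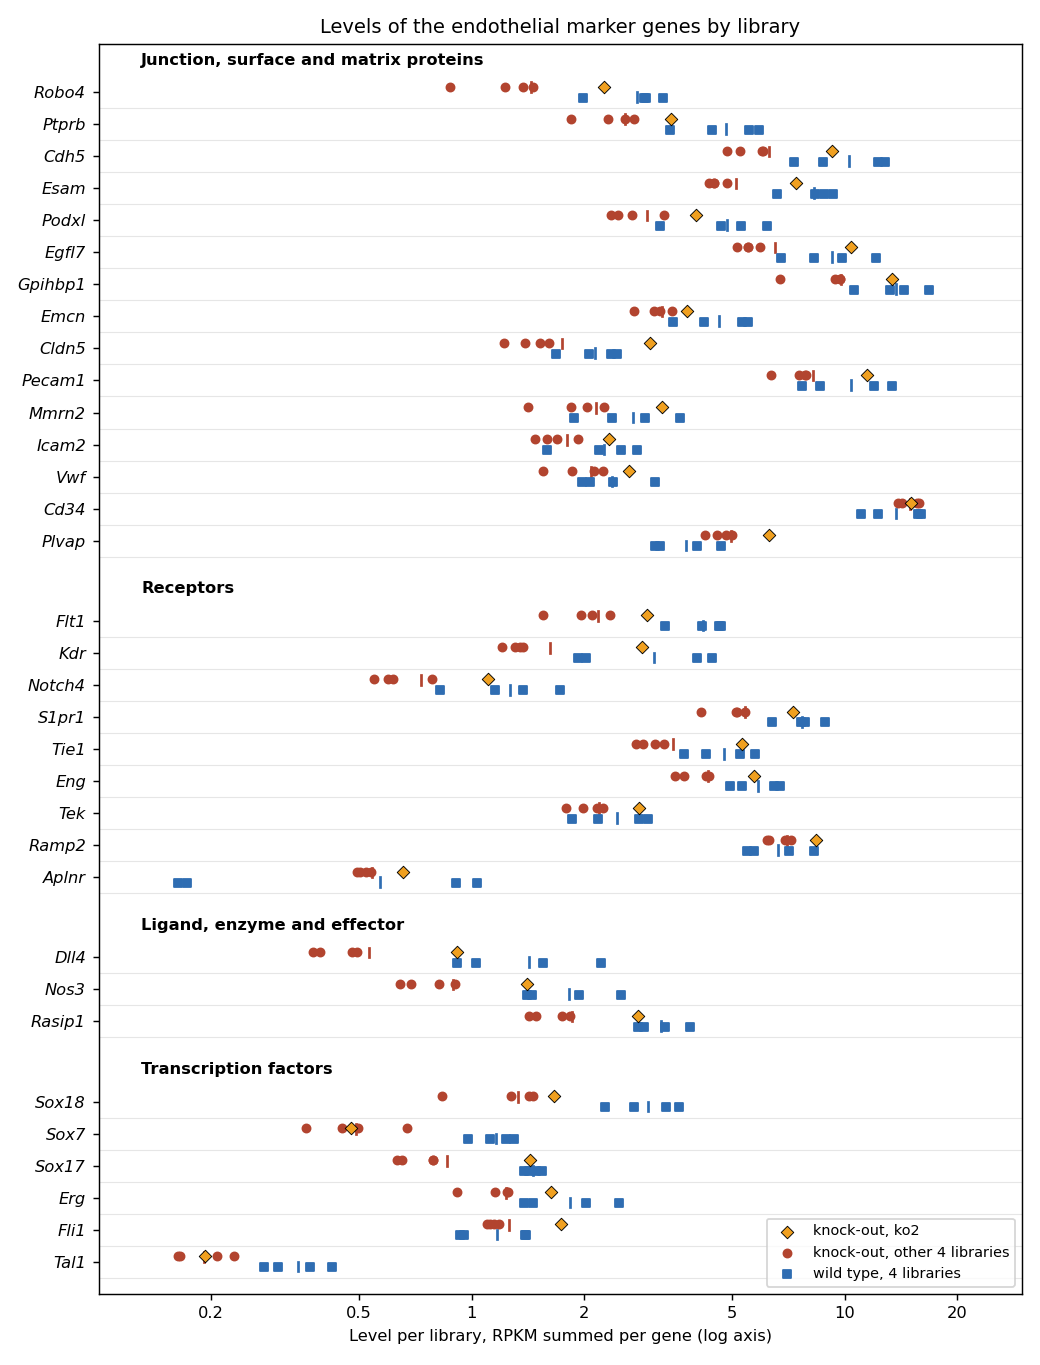
Levels of the 33 endothelial marker genes, grouped by role and ordered within a role by fold change, with 1 symbol per library. The horizontal axis is RPKM on a log scale, knock-out libraries (circles, with ko2 as a diamond) stand above wild-type libraries (squares) in each row, and vertical strokes mark group means. For most genes ko2 sits to the right of the other 4 knock-out libraries, inside the wild-type range.

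**Figure D2:**
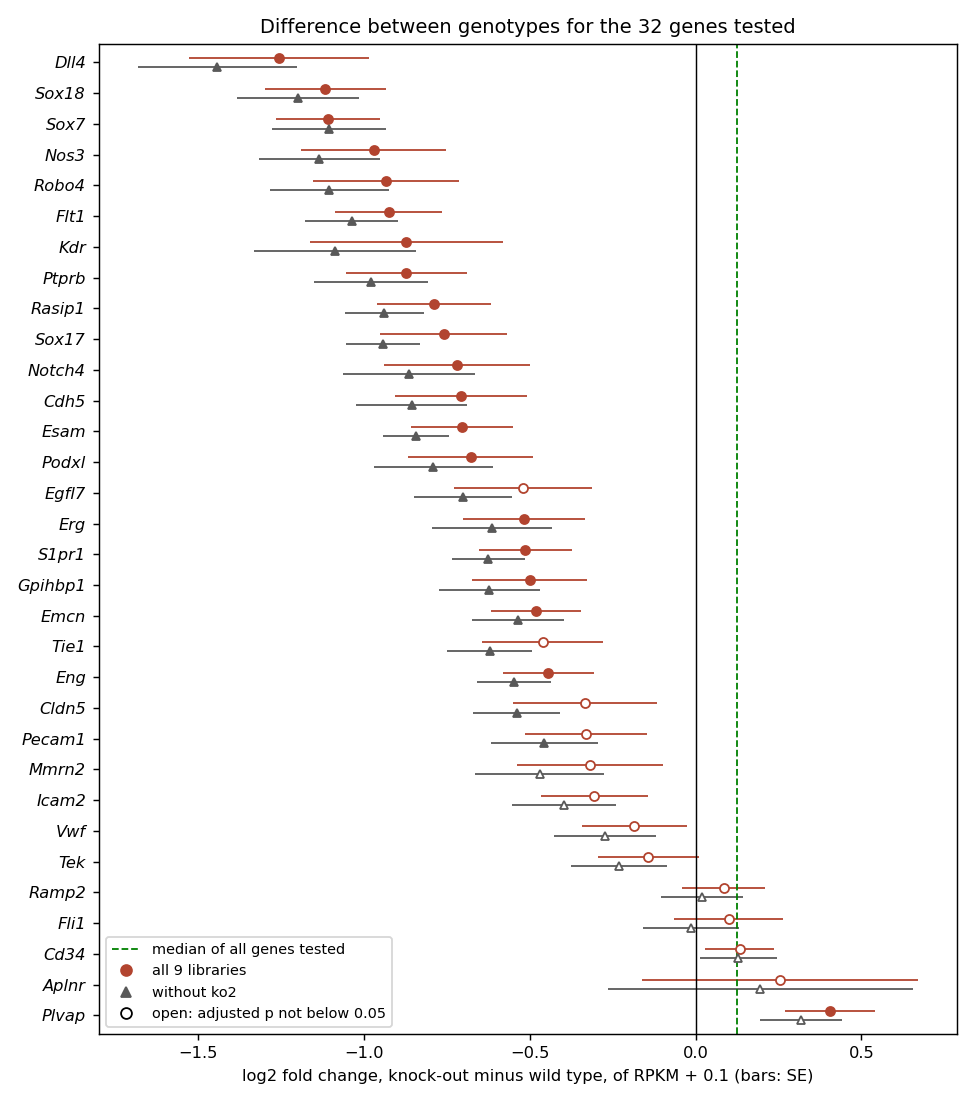
Log2 fold change of RPKM + 0.1, knock-out minus wild type, for the 32 genes tested, with the standard error as a bar. Circles use all 9 libraries and triangles leave out ko2, filled symbols are past adjusted p 0.05, and the dashed line is the median of all genes at 0.12. All but 5 genes lie to the left of 0, with Dll4 at -1.26 and Plvap at 0.40 as the ends.

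Promoter sequences, windows of 300 bases that hold each gene's start, are shown for the markers with the smallest p-values that the RefSeq table (GRCm38.p6, not the mm9 build of the deposited values) holds, and for Cd34, which did not pass the test. Of the 5 smallest p-values Flt1 and Dll4 were in it, and Rasip1, Robo4 and Cd34 were added with values known. Capitals mark AGGAAG, a core that ETS factors bind, and its reverse complement CTTCCT; each sequence runs 5′ to 3′ on the strand of its gene.
Flt1, chr5:147725962-147726261, minus strand: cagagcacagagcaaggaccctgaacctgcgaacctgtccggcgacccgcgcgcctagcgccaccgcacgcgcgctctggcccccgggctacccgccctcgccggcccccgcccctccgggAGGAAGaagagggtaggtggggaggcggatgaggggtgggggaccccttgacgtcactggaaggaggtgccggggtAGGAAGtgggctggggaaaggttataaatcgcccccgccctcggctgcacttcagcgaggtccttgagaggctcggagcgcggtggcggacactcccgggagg
Dll4, chr2:119325534-119325833, plus strand: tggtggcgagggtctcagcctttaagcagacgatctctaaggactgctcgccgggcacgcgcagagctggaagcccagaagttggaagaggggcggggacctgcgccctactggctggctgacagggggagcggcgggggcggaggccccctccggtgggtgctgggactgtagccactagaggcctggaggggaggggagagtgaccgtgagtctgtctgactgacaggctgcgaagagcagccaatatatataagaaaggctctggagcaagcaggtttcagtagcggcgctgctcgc
Rasip1, chr7:45627287-45627586, plus strand: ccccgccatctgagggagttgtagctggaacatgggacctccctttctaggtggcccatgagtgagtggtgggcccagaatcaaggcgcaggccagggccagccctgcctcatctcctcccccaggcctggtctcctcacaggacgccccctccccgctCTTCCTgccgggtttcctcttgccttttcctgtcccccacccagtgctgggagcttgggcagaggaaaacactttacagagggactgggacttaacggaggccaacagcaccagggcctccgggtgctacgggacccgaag
Robo4, chr9:37401722-37402021, plus strand: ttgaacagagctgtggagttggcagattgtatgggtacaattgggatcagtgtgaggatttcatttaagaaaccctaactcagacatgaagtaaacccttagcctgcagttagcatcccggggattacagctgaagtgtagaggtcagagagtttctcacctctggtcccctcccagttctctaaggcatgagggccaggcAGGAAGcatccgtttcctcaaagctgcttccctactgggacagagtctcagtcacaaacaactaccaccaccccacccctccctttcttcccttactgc
Cd34, chr1:194938571-194938870, plus strand: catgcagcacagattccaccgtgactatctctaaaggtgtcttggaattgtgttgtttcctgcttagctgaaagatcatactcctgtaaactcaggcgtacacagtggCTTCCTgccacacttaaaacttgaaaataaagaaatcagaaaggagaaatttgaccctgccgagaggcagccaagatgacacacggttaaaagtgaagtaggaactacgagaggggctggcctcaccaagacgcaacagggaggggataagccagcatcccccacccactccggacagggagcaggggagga
Flt1, which fell, holds 2 such matches, Rasip1, Robo4 and Cd34 hold 1 each, and Dll4, the marker with the largest fold change, holds 0. Of 20 promoter windows of 15 markers in the table, 11 held AGGAAG on either strand, where 35.4% of all 32851 windows did. The SOX core ACAAT or its complement ATTGT, whose matches cannot overlap a match of AGGAAG, was in 6 of the 20, where 31.0% of all windows held it. A match is a description of letters and not a measured binding site.

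Transcription factors of the endothelium held the 2 smallest p-values, those of Sox7 and Sox18. Of 5 tested, 4 fell and Fli1 did not pass, with a median log2 fold change of -0.76. Sox7, a SoxF factor of vessel identity, was at 0.359, 0.476, 0.449, 0.495 and 0.670 RPKM in ko1 to ko5, against 0.977, 1.12, 1.24 and 1.30 RPKM in wt1 to wt4. The groups did not overlap, and ko2 was in the middle of the knock-out values. Its level was 2.16-fold lower (log2 fold change -1.11, SE 0.16, limma adjusted p = 1.2e-04), on about 26 to 71 reads per knock-out library and 119 to 262 per wild-type library.

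Sox18, the SoxF factor tied to lymphatic and blood vessel development, read 1.43, 1.66, 0.835, 1.46 and 1.28 RPKM in ko1 to ko5, against 2.29, 2.72, 3.60 and 3.31 RPKM in wt1 to wt4. Here too every knock-out library lay below every wild-type library, with ko3 lowest (log2 fold change -1.12, SE 0.18, adjusted p = 3.4e-04). Sox17, which favours arterial identity, read 0.788, 1.44, 0.630, 0.652 and 0.788 RPKM in the knock-out, against 1.42, 1.54, 1.49 and 1.39 RPKM in the wild type. Only ko2 reached the narrow wild-type range, and the other 4 knock-out libraries were at 48.9% of the wild-type mean (log2 fold change -0.76, SE 0.19, adjusted p = 0.0061).

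Erg, an ETS factor, averaged 1.24 ± 0.257 RPKM in the knock-out and 1.84 ± 0.515 RPKM in the wild type (SD, n = 5 and 4; log2 fold change -0.52, adjusted p = 0.035). Fli1, an ETS factor that leukocytes and platelets also express, averaged 1.26 ± 0.269 RPKM in the knock-out and 1.17 ± 0.262 RPKM in the wild type (adjusted p = 0.64). Its sign turned when the libraries were centred (log2 fold change 0.10 as deposited and -0.027 centred). Tal1, a factor shared by blood stem cells and endothelium, lay below the level needed for the test, at 0.163 to 0.230 RPKM in the knock-out and 0.277 to 0.424 RPKM in the wild type, with no overlap. With no filter on low values it was lower (log2 fold change -0.59, limma adjusted p = 0.0057), on about 17 to 29 reads per knock-out library.

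Receptors came next. Of 9 tested, 5 fell (Flt1, Kdr, S1pr1, Notch4 and Eng), none rose and 4 did not pass, and ko2 was the highest knock-out library for all 9. Flt1, a VEGF receptor that mainly traps the ligand, read 1.55, 2.95, 2.10, 1.97 and 2.35 RPKM in ko1 to ko5, against 3.31, 4.15, 4.68 and 4.60 RPKM in wt1 to wt4. The groups did not overlap (log2 fold change -0.93, SE 0.16, adjusted p = 5.3e-04). Kdr, the main signalling receptor for VEGF, read 1.35, 2.86, 1.21, 1.30 and 1.37 RPKM in the knock-out, against 1.92, 2.03, 4.40 and 4.01 RPKM in the wild type. The other knock-out values lay close together below the wild type, and ko2 lay between its lower and its upper pair. The call of Kdr (log2 fold change -0.87, SE 0.29, adjusted p = 0.025) was lost without ko1, ko3, ko4, ko5, wt3 or wt4 (adjusted p 0.052 to 0.074) and with no filter on low values (0.059), while without ko2 the log2 fold change was -1.09. With wt3 and wt4 both left out, the log2 fold change of Kdr was -0.35 (adjusted p = 0.30).

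S1pr1, which binds sphingosine 1-phosphate and tightens the barrier, averaged 5.41 ± 1.16 RPKM in the knock-out and 7.69 ± 1.02 RPKM in the wild type (log2 fold change -0.51, adjusted p = 0.0099). Notch4, a Notch receptor of endothelium, averaged 0.730 ± 0.230 RPKM in the knock-out and 1.27 ± 0.378 RPKM in the wild type (log2 fold change -0.72, adjusted p = 0.018), and its call was lost without wt3 (adjusted p = 0.053). Eng, a co-receptor for bone morphogenetic proteins, averaged 4.31 ± 0.856 RPKM in the knock-out and 5.86 ± 0.869 RPKM in the wild type (log2 fold change -0.44, adjusted p = 0.018). Without wt3 Eng no longer passed (adjusted p = 0.051), and likewise without wt4 (0.050). With wt3 and wt4 both left out, neither Notch4 nor Eng passed (adjusted p = 0.18 for each).

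The angiopoietin receptor Tek was at 1.79 to 2.81 RPKM in the knock-out and 1.86 to 2.97 RPKM in the wild type, ranges that nearly coincide (adjusted p = 0.46). Tie1, its partner, averaged 3.47 ± 1.04 RPKM in the knock-out and 4.74 ± 0.922 RPKM in the wild type and just missed the test (log2 fold change -0.46, adjusted p = 0.052). Without ko2, its highest knock-out library, the log2 fold change of Tie1 was -0.62. Over 21 alternatives to the fit it ran from -0.69 to -0.23. With the libraries centred, Tie1 was called lower (log2 fold change -0.59, limma adjusted p = 0.013). Ramp2, the partner of the adrenomedullin receptor, averaged 6.99 ± 0.881 RPKM in the knock-out and 6.64 ± 1.31 RPKM in the wild type (adjusted p = 0.60), with its sign turning under centring (log2 fold change 0.08 as deposited and -0.042 centred).

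Aplnr, the apelin receptor, split the wild type. It read 0.493, 0.654, 0.537, 0.521 and 0.501 RPKM in ko1 to ko5, against 0.173, 0.163, 1.04 and 0.906 RPKM in wt1 to wt4. The knock-out values lay in a narrow band between the 2 lower and the 2 higher wild-type values (log2 fold change 0.26, SE 0.42, adjusted p = 0.63). Against wt1 and wt2 alone Aplnr was higher (log2 fold change 1.25, adjusted p = 3.0e-04) and against wt3 and wt4 alone it was lower (log2 fold change -0.74, adjusted p = 0.0036). The lowest wild-type level rested on an estimated 22 reads.

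The Notch ligand, the nitric oxide synthase and the lumen regulator all fell. Dll4, the ligand of endothelial tip cells and arteries, had the largest fold change of the 32. It read 0.393, 0.912, 0.375, 0.477 and 0.493 RPKM in ko1 to ko5, against 0.912, 1.03, 2.22 and 1.55 RPKM in wt1 to wt4 (log2 fold change -1.26, SE 0.27, adjusted p = 0.0024). The groups did not overlap, although ko2 and wt1 both round to 0.912 RPKM. Dll4 was still called with a pseudocount of 1 (log2 fold change -0.65). Nos3, which makes nitric oxide in endothelium, read 0.688, 1.41, 0.642, 0.816 and 0.904 RPKM in the knock-out, against 1.41, 2.51, 1.94 and 1.45 RPKM in the wild type (log2 fold change -0.97, SE 0.22, adjusted p = 0.0031). Rasip1, needed for vessel lumens, averaged 1.86 ± 0.548 RPKM in the knock-out and 3.21 ± 0.483 RPKM in the wild type (log2 fold change -0.79, SE 0.17, adjusted p = 0.0025). Both Nos3 and Rasip1 stayed below all wild-type values in all 5 knock-out libraries, though ko2 only narrowly. For Nos3 ko2 was at 1.406 RPKM against 1.411 in wt1, and for Rasip1 ko2 was at 2.790 RPKM against 2.800 in wt4.

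Junction, surface and matrix proteins were the largest group, with 7 of 15 lower, 1 higher and 7 not past the test. Cdh5, the cadherin of endothelial junctions, read 4.83, 9.24, 5.23, 6.04 and 6.00 RPKM in ko1 to ko5, against 7.31, 8.74, 12.9 and 12.3 RPKM in wt1 to wt4 (log2 fold change -0.71, SE 0.20, adjusted p = 0.011). Only ko2 entered the wild-type range, above wt1 and wt2. The call of Cdh5 was lost when wt3 and wt4 were both left out (adjusted p = 0.13). Ptprb, a phosphatase that restrains Tek and steadies Cdh5, averaged 2.58 ± 0.579 RPKM in the knock-out and 4.81 ± 1.13 RPKM in the wild type (log2 fold change -0.87, SE 0.18, adjusted p = 0.0019). Esam, a junctional adhesion protein, averaged 5.11 ± 1.30 RPKM in the knock-out and 8.26 ± 1.18 RPKM in the wild type (log2 fold change -0.70, adjusted p = 0.0025). Robo4, a guidance receptor that limits leak, averaged 1.44 ± 0.514 RPKM in the knock-out and 2.77 ± 0.550 RPKM in the wild type (log2 fold change -0.93, adjusted p = 0.0041). For each of these 4 genes the knock-out libraries other than ko2 lay wholly below the wild type.

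Podxl, a sialomucin of the luminal surface, averaged 2.96 ± 0.679 RPKM in the knock-out and 4.83 ± 1.25 RPKM in the wild type (log2 fold change -0.68, adjusted p = 0.011). Emcn, another sialomucin, averaged 3.25 ± 0.396 RPKM in the knock-out and 4.61 ± 0.958 RPKM in the wild type (log2 fold change -0.48, adjusted p = 0.011). The Emcn call needed both of its RefSeq transcripts, since the more abundant one alone did not pass (adjusted p = 0.26). With wt3 and wt4 both left out, neither Emcn nor Podxl passed (adjusted p = 0.11 for Podxl). Gpihbp1, which carries lipoprotein lipase to the capillary lumen, averaged 9.81 ± 2.39 RPKM in the knock-out and 13.8 ± 2.59 RPKM in the wild type (log2 fold change -0.50, adjusted p = 0.031). Like Erg, it no longer passed without any 1 of ko1, ko3, ko5, wt3 and wt4 (adjusted p 0.054 to 0.085 for Gpihbp1 and 0.055 to 0.10 for Erg), nor, for Gpihbp1, without wt2 (0.051) or, for Erg, without ko4 (0.053). With no filter on low values neither passed (0.066 for Gpihbp1 and 0.071 for Erg). With wt3 and wt4 both left out, the adjusted p was 0.23 for Gpihbp1 and 0.36 for Erg.

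Pecam1, the adhesion molecule most used to stain endothelium, read 6.37, 11.5, 7.84, 7.89 and 7.54 RPKM in ko1 to ko5, against 7.70, 8.60, 13.4 and 12.0 RPKM in wt1 to wt4. The groups overlapped and the difference did not pass (log2 fold change -0.33, SE 0.18, adjusted p = 0.15). Without ko2 the log2 fold change of Pecam1 was -0.46. Over 21 alternatives to the fit it ran from -0.65 to -0.013. With the libraries centred, Pecam1 was called lower (log2 fold change -0.46, limma adjusted p = 0.040). Egfl7, a secreted protein of the vessel matrix, averaged 6.51 ± 2.20 RPKM in the knock-out and 9.26 ± 2.31 RPKM in the wild type (adjusted p = 0.054). Cldn5, the tight junction claudin of endothelium, read 1.52, 3.02, 1.39, 1.61 and 1.22 RPKM in the knock-out, against 1.69, 2.07, 2.36 and 2.46 RPKM in the wild type (adjusted p = 0.22). Library ko2 exceeded all wild-type values of Cldn5 and the other 4 knock-out libraries lay below them all. Without ko2 the log2 fold change was -0.70 for Egfl7 and -0.54 for Cldn5. Over 21 alternatives to the fit it ran from -0.79 to -0.25 for Egfl7 and from -0.59 to -0.16 for Cldn5. With the libraries centred, Egfl7 was called lower (limma adjusted p = 0.017) and Cldn5 was not (0.085).

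The remaining surface genes overlapped between genotypes. Mmrn2, a matrix partner of endothelial receptors, was at 1.42 to 3.24 RPKM in the knock-out and 1.89 to 3.63 RPKM in the wild type (adjusted p = 0.25). Icam2, a leukocyte ligand, was at 1.48 to 2.33 RPKM in the knock-out and 1.60 to 2.78 RPKM in the wild type (adjusted p = 0.14). With the libraries centred, Icam2 was called lower (limma adjusted p = 0.033). Vwf, the clotting protein stored in endothelium and platelets, was at 1.55 to 2.65 RPKM in the knock-out and 1.98 to 3.11 RPKM in the wild type (adjusted p = 0.35). Cd34, the most abundant of the 33 genes and one that stem and stromal cells of muscle also carry, was at 13.9 to 15.8 RPKM in the knock-out and 11.0 to 16.1 RPKM in the wild type (adjusted p = 0.31). Its knock-out libraries differed little, ko2 included.

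Plvap, which forms the diaphragms of caveolae and fenestrae, was the only marker called higher. It read 4.99, 6.29, 4.56, 4.80 and 4.22 RPKM in ko1 to ko5, against 3.11, 3.19, 4.67 and 4.01 RPKM in wt1 to wt4. The groups overlapped through wt3, with ko2 again at the top (log2 fold change 0.40, SE 0.14, adjusted p = 0.027). The call did not hold without ko1 (adjusted p = 0.051), ko2 (0.055), wt1 (0.081) or wt2 (0.078), nor with the libraries centred (0.083). Set against Cdh5, which itself fell, 8 of the other 31 markers tested had all knock-out ratios above all wild-type ratios, as 36.4% of all genes did. They were Pecam1, Tek, Tie1, Vwf, Fli1, Ramp2, Mmrn2 and Plvap. In 1, Dll4, all lay below, as in 0.553% of all genes. Plvap stood at a ratio of 0.816 ± 0.143 in knock-out libraries, against 0.370 ± 0.0416 in wild-type libraries. Dll4 per Cdh5 was 0.0826 ± 0.00990 in knock-out libraries, against 0.135 ± 0.0251 in wild-type libraries. The ratio of Fli1 to Cdh5 was 0.186 to 0.228 in knock-out libraries, against 0.108 to 0.127 in wild-type libraries, and that of Kdr overlapped, at 0.216 to 0.309 in knock-out libraries, against 0.232 to 0.342 in wild-type libraries. These ratios were chosen with the levels known and were not tested.

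The place of ko2 among the knock-out libraries was measured over the markers. The mean of log2(RPKM + 0.1) over the 32 genes was 1.77 in ko2 and 1.06, 1.11, 1.25 and 1.26 in ko1, ko3, ko4 and ko5, against 1.44, 1.69, 2.12 and 1.97 in wt1 to wt4. So ko2 lay above wt1 and wt2 and below wt3 and wt4, and the other knock-out libraries lay below all 4. Its level over the mean of the other 4 ran from 0.965 for Sox7 to 2.18 for Kdr, with a median of 1.49 over the markers. On the log2 scale ko2 exceeded the other 4 by a median of 0.56 over the markers and 0.06 over all genes tested.

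The extent differed by gene. Relative to the wild-type mean, Kdr was at 92.4% in ko2 and 42.3% in the mean of the other 4, Sox17 at 98.3% and 48.9%, and Cldn5 at 141% and 67.0%. Flt1 was at 70.4% in ko2 and 47.6% in the others, Sox18 at 55.8% and 41.9%, and Dll4 at 63.9% and 30.5%. Sox7 was alike in ko2 (41.0%) and the others (42.5%), as was Cd34 (109% and 108%). In all, ko2 lay above the wild-type mean for 13 of the 32 and above the lowest wild-type library for 26.

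Markers of other cell types were read in the same libraries. The nerve and Schwann cell list summed to 59.7 RPKM in ko2 and 28.5 to 38.5 RPKM in the other 4 knock-out libraries, with the wild type at 23.6 to 58.4 RPKM. Pericyte and smooth muscle markers had their highest knock-out value in ko2 for 11 of 14 genes tested, against 34.0% of all genes. Myh7, the slow myosin, was at 54.1 RPKM in ko2 and 49.2 RPKM in ko5, and at 13.3 to 25.8 RPKM in the other 3 knock-out libraries, so it was high in both ko2 and ko5. Fibroblast and adipocyte lists had ko2 highest for 0 of 10 and 0 of 9 genes. The part of such differences in the endothelial values was not tested.

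**Figure D3:**
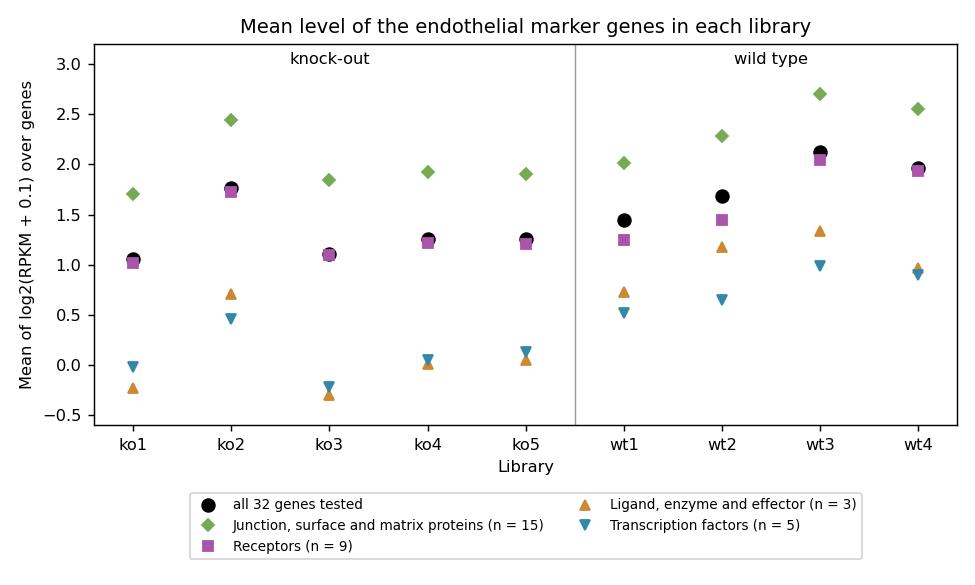
Mean of log2(RPKM + 0.1) in each library over the 32 genes tested and over each role group, knock-out libraries to the left of wild-type libraries. In ko2 the mean of all 32 is 1.77, above 1.44 in wt1 and 1.69 in wt2, and the other knock-out libraries lie between 1.06 and 1.26.

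**Figure D4:**
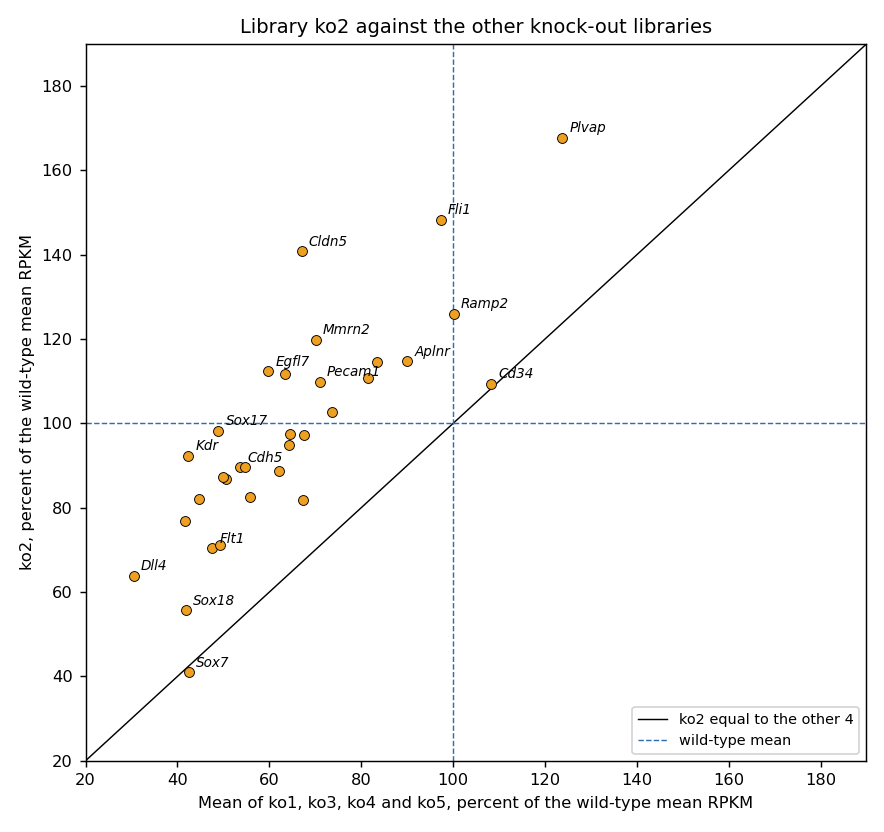
Level in ko2 (vertical axis) against the mean of the other 4 knock-out libraries (horizontal axis), both in percent of the wild-type mean RPKM, with 1 point per gene tested. Points above the diagonal are higher in ko2; Sox7 and Cd34 lie on or near it, and Kdr and Cldn5 are far above it.

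Further genes of the vessel wall were read from lists that hold other endothelial and vascular genes. Beside their counts stand the shares over all genes, 14.8% lower and 37.0% higher. These shares were 14.5% and 34.1% without ko2, and 25.0% and 25.1% with centring. Library ko2 was the highest knock-out library for 22 of 26 further pan-endothelial genes tested and 10 of 15 capillary genes. It was so for 5 of 8 arterial, 5 of 6 venous and activated endothelium and 1 of 4 lymphatic genes. For VEGF and Notch pathway genes it was 15 of 20, and for vascular ligands 8 of 17, against 34.0% of all genes. Of 26 further pan-endothelial genes tested, 11 fell and 2 rose (13 and 2 without ko2, 14 and 1 with centring), with a median log2 fold change of -0.39; Sox18 is in this list too. Bcl6b, a repressor enriched in endothelium, averaged 0.702 ± 0.218 RPKM in the knock-out and 2.21 ± 0.684 RPKM in the wild type (log2 fold change -1.51, adjusted p = 1.5e-04). Cd93 and Gimap6 also fell (log2 fold changes -0.71 and -0.59). Lmo2, a partner of Tal1, rose (log2 fold change 0.95, adjusted p = 7.3e-05), at 3.10 to 4.02 RPKM in the knock-out and 1.47 to 2.13 RPKM in the wild type.

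Capillary and lipid handling genes had 7 of 15 lower and 2 higher (9 and 1 without ko2, 10 and 0 with centring). The caveolins Cav1 and Cav2 and the water channel Aqp1 fell: Cav1 averaged 29.6 ± 3.29 RPKM in the knock-out and 43.9 ± 7.83 RPKM in the wild type, and Aqp1 averaged 44.6 ± 13.3 RPKM in the knock-out and 80.6 ± 9.56 RPKM in the wild type. Cd36, a fatty acid carrier that fibres also express, was called higher (log2 fold change 0.35, adjusted p = 0.016), but not with centring (0.22, adjusted p = 0.092). Of 8 arterial genes 3 fell and none rose (5 and 0 with centring), led by Hey1, a Notch target, at 0.586 ± 0.0963 RPKM in the knock-out and 1.26 ± 0.136 RPKM in the wild type (1.99-fold lower, adjusted p = 8.0e-05). Of 6 venous and activated endothelium genes Ephb4 and Nrp2 fell and the adhesion molecules Icam1 and Vcam1 rose (log2 fold changes 0.68 and 0.62), and 3 fell and 2 rose with centring. Of 4 lymphatic genes tested, Ccl21a, Flt4 and Lyve1 fell and Pdpn rose. Prox1, Mmrn1 and Reln lay below the level needed for the test. Prox1 was at 0.177 to 0.291 RPKM in the knock-out and 0.0823 to 0.172 RPKM in the wild type, and the other genes overlapped.

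Receptors and mediators of the VEGF, Notch and bone morphogenetic protein pathways beyond the markers had 11 of 20 lower and 1 higher (14 and 1 with centring), with a median log2 fold change of -0.47. Id1 and Id3, targets of bone morphogenetic proteins, fell (log2 fold changes -1.15 and -0.90), as did the inhibitor Smad7 (-0.91) and Notch1 (-0.69). S1pr2, a second receptor of sphingosine 1-phosphate, rose (log2 fold change 1.69, adjusted p = 9.9e-07). Vascular ligands and hypoxia factors had 3 of 17 lower and 4 higher (6 and 4 without ko2, 7 and 4 with centring). In the main comparison their share lower was near the 14.8% of all genes, and their share higher was under the 37.0%. Vegfa averaged 31.3 ± 3.58 RPKM in the knock-out and 38.1 ± 2.53 RPKM in the wild type (log2 fold change -0.29, adjusted p = 0.013), Pgf and Jag1 fell, and Figf (VEGF-D), Angpt1, Pdgfb and Sema3a rose (log2 fold changes 1.26, 1.09, 1.13 and 1.80).

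Neighbouring cell types did not share a direction. Over all genes 14.8% were lower and 37.0% higher, and with centring 25.0% and 25.1%. Red blood cell genes had 6 of 7 lower, and Alas2 averaged 0.939 ± 0.110 RPKM in the knock-out and 1.61 ± 0.171 RPKM in the wild type; their sum was 172 to 261 RPKM in the knock-out and 310 to 333 RPKM in the wild type. Of 14 pericyte and smooth muscle markers 3 fell and 4 rose (5 and 3 without ko2, 5 and 2 with centring), with Rgs5, a pericyte gene, at 9.56 to 14.8 RPKM in the knock-out and 25.7 to 41.5 RPKM in the wild type. Cspg4, in the same list, rose (log2 fold change 1.87), averaging 2.49 ± 0.353 RPKM in the knock-out and 0.622 ± 0.206 RPKM in the wild type. Abcc9, Cnn1 and Des rose as well. With centring Des still passed, while Abcc9 (limma adjusted p = 0.12) and Cnn1 (0.056) did not. Des averaged 2369 ± 133 RPKM in the knock-out and 1205 ± 161 RPKM in the wild type. Which cells of whole muscle gave the Des and Abcc9 levels was not tested. Macrophage markers had 12 of 15 higher and summed to 85.5 to 145 RPKM in the knock-out and 36.8 to 47.9 RPKM in the wild type. Adipocyte markers had 5 of 9 lower and none higher (7 and 0 with centring), while fibroblast markers had 4 of 10 higher and none lower (4 and 1 with centring), a share near the 37.0% of all genes. Satellite cell markers had 2 of 4 higher, nerve and Schwann cell markers 1 of 7 and muscle fibre markers 4 of 10 (2 higher and 2 lower with centring), the last again near the share of all genes. Platelet markers summed to 4.35 to 6.02 RPKM in the knock-out and 4.16 to 5.64 RPKM in the wild type, with Gp1ba lower and 1 more gene tested. Of the haematopoietic markers 2 were tested, of which Gata2 fell and Cd3e rose. The part of these cell types in the endothelial values was not tested.

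**Figure D5:**
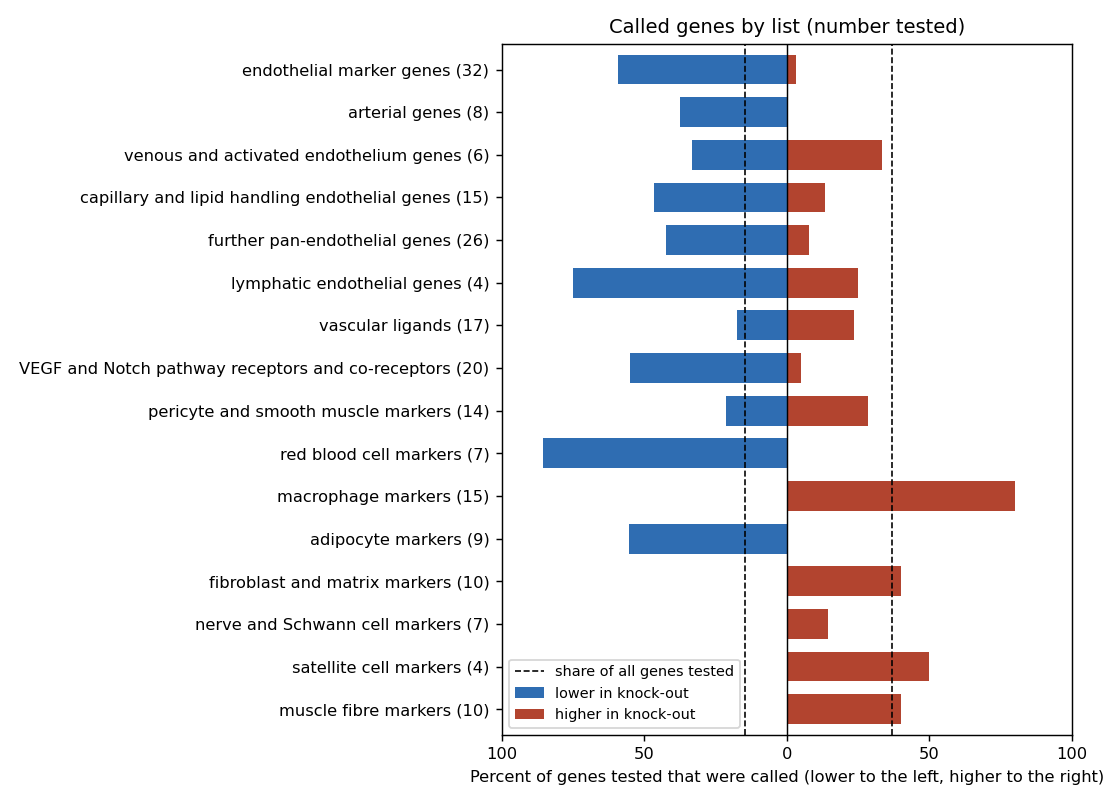
Percent of the genes tested in each list that were called lower (bars to the left) or higher (bars to the right) in the knock-out, with the number tested in brackets and dashed lines at the shares over all genes, 14.8% lower and 37.0% higher. Lists with fewer than 4 genes tested are not drawn. The endothelial marker, arterial, capillary, further pan-endothelial, lymphatic, VEGF and Notch, red blood cell and adipocyte lists extend mainly to the left. The macrophage, fibroblast, satellite cell, nerve and Schwann cell, and muscle fibre lists extend only to the right. The vascular ligand list (17 tested) and the pericyte and smooth muscle list (14 tested) each have 3 lower and 4 higher. The venous and activated endothelium list is even, with 2 lower and 2 higher of 6.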

How the data were processed

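The authors deposited RPKM values for 9 libraries in a single table, by RefSeq transcript. Per the labels' protocols, Trizol served for extraction and an Illumina TruSeq kit for the libraries. Per the submitters' processing notes, TopHat 1.3.2, Bowtie 0.12.7.0 and Partek 6.6 were used with mm9; their roles, the strand and any filters are not stated there. It lists 23665 transcripts, whose RPKM were summed per symbol to 18062 genes; of 37 symbols turned into dates 36 were restored, none of them a marker, and 5 markers had several transcripts. Depth was estimated from RPKM times transcript length, where 71.0% to 74.6% of values of up to 5 reads lay within 0.1 of a whole read; RPKM summed to between 349239 and 374056 per knock-out library, against 315337 to 327517 per wild-type library.

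Genes with a mean of at least 0.5 RPKM were compared between genotypes by limma 3.58.1 (R 4.3.3; lmFit, then eBayes with a mean trend; two-sided) after taking log2(RPKM + 0.1), with Benjamini-Hochberg adjustment over all 11032 genes. The added 0.1 makes the fold change of a low gene too small. The step was tested on simulated data. Python 3.11.15, pandas 2.3.3, numpy 2.4.6 and matplotlib 3.10.9 made the tables and plots. Every marker is reported. Of the other lists, genes were named from the called ones with the smallest p, up to 4 in each direction. The exceptions were Acta1 and the untested Prox1, Mmrn1 and Reln, which were chosen after their values were seen. Fabp4, Flt4, Gja4, Notch3, Nrp2 and Vcam1 each stand in 2 of these lists. The markers and lists were chosen with earlier results of these data known. The wild-type columns could not be tied to ages, so a fit with age was not run.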

Additional observations from a re-analysis of the deposited data

Results flagged for a closer look

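Among the 33 markers, each tested in both genotypes (66 groups of values), 10 groups had a highest or lowest library set apart from the rest, where chance gives about 1 in 20. All 10 were knock-out groups with ko2 at the top. The measure is the gap from ko2 to the next library over the whole range of the 5 libraries. It was 0.900 for Kdr (ko2 at 2.86 RPKM, the others at 1.21 to 1.37), 0.865 for Fli1, 0.846 for Egfl7, 0.8285 for Esam, 0.804 for Sox17 and 0.795 for Tie1. It was 0.783 for Cldn5, 0.780 for Dll4, 0.724 for Cdh5 and 0.724 for Aplnr. Library ko2 was singled out with its values known and the markers share it, so the 10 are neither independent nor support for its place, and are given as a description. No wild-type library was set apart in this way for any marker, although wt3 and wt4 lay above wt1 and wt2 for most.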

How the results depend on the processing

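Over 21 alternatives to the fit the count of markers lower ran from 11 to 24. It kept within 1.5 times of 19 under all but 1, the fit without wt3 and wt4 (11 lower and 4 higher). Leaving out 1 library at a time gave 14 to 23 lower and 0 to 1 higher. The single marker called higher, Plvap, was not called (0 higher) with no filter on low values, with centring, quantile normalization, the length trend removed, array weights, or without wt1 and wt2. The median log2 fold change stayed negative, from -0.73 to -0.28. Of the 19 markers lower, 11 were called in every alternative that tested them: Sox7, Sox17, Sox18, Flt1, Ptprb, Esam, Rasip1, Robo4, Nos3, S1pr1 and Dll4. A minimum of 1 RPKM left out Sox7, Dll4, Notch4 and Aplnr. Across 668 values for single markers 570 kept their call and direction, 44 lost the call, 33 gained one and 21 changed sign. With centring 4 gained a call, all as lower: Pecam1, Tie1, Egfl7 and Icam2.

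The sign changes were in genes with no call in the main comparison. Aplnr was called in both directions, lower without wt1 and wt2 (log2 fold change -0.74) and higher without wt3 and wt4 (1.25). Fli1 was at -0.027 with centring, -0.026 with quantile normalization, -0.028 with the length trend removed, -5.4e-04 with array weights and -0.16 without wt1 and wt2, and from -0.014 (without ko2) to 0.19 with 1 library left out. Ramp2 was at -0.042 with centring, -0.050 with quantile normalization, -0.20 with the length trend removed and -0.14 without wt1 and wt2, and from -1.4e-04 (without wt1) to 0.20 with 1 library left out. Cd34 was at -0.031 with quantile normalization, -0.037 with the length trend removed and -0.090 without wt1 and wt2. Aplnr was at -0.057 with quantile normalization, -0.010 with array weights and -0.74 without wt1 and wt2, and from -0.087 (without wt2; -0.069 without wt1) to 0.62 with 1 library left out. Without wt3 and wt4, Tek was at 0.11 and Vwf at 0.021. The cause was not tested. ko2 was highest for 28 to 30 of 32 or 33 markers, and for 27 of 28 with a minimum of 1 RPKM. No paired analysis was possible because the wild-type columns carry no number that ties them to the numbered samples of the labels. Markers under 1 RPKM rest on few reads in the shallowest library, ko3 (about 26 for Sox7), which limits their precision.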
